A study of Mus musculus with 6 samples.

Results

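The complement genes measured here were the 3 chains of C1q (C1qa, C1qb and C1qc), the components C3 and C4b, the alternative pathway proteins factor B (Cfb) and properdin (Cfp), and the receptors of the anaphylatoxins C3a and C5a (C3ar1 and C5ar1). The 9 genes were chosen by name and each was found on the arrays through the accession of its probes, so that they made up 9 of the 16366 genes tested. Lung RNA was measured in 3 saline-treated and 3 rhTM-treated mice, 1 Agilent single-colour array per mouse. All 6 mice were C57BL6 males, 10 weeks old, starved for 16 h and injected intraperitoneally with LPS at 20 mg/kg, the bacterial endotoxin that starts systemic inflammation. They received saline or recombinant human thrombomodulin (rhTM), the soluble form of an endothelial anticoagulant receptor, 3 and 24 h after LPS, and lungs were taken at 30 h. Both groups had LPS, so the comparison gives the difference made under endotoxaemia and no level in an unchallenged lung. Whole lung was used, in which fewer cells of a type and less RNA per cell cannot be told apart.

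Complement is a cascade of plasma proteins that is started by antibody or surface-bound C1q, by mannan-binding lectins, or by slow spontaneous turnover of C3, and all these routes meet in the cleavage of C3. The small fragments C3a and C5a call in and activate myeloid cells through C3ar1 and C5ar1. The liver makes most of the circulating C3, whereas C1q comes mainly from macrophages and properdin from myeloid cells. Thrombomodulin touches this system because the thrombin-thrombomodulin complex activates a plasma carboxypeptidase that removes the terminal arginine of C3a and C5a. That step acts on proteins, and mRNA arrays do not see it.

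Features of the arrays bear on every value below. Scanner output and a table of the same signals were deposited, and in the table the columns of saline replicate 1 and rhTM replicate 2 hold the signals that the scanner output gives to the other of these mice, with 99.9% of probes matching within 0.1%. Which assignment is right could not be settled, so the values follow the scanner output and differences by the table are given beside them. By the scanner output, saline replicate 1 and rhTM replicate 3 were on slide 2 and the other 4 arrays on slide 1, whereas by the table slide 2 held rhTM arrays alone. The array labelled saline replicate 1 also had a spike-in slope of 0.826, outside the range set by the software, against 1.07 to 1.09 on the other 5. Between 36002 and 40503 probes per array were well above background, and all 9 complement genes were so on all 6 arrays. Levels are given as signal divided by the 75th percentile of its array, and each difference is on the log2 scale, rhTM minus saline.

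The mean of each of the 9 genes was lower in rhTM-treated lungs by the scanner output, by between 0.03 (C5ar1) and 0.38 (C1qb) on the log2 scale, and none passed the threshold of the limma fit. The median difference was -0.14, against 0.0026 over all genes, of which 49.3% were lower. By the authors' table the means of 7 of the 9 were lower (54.0% of all genes), with a median of -0.15 against -0.02. No gene of either assignment was called at a limma adjusted p of 0.05 (0.0% called), and the adjusted p of each of the 9 was 0.9999 by the scanner output. At an unadjusted p under 0.05 there was 1 of the 9, C1qb, against 1.87% of all genes by the scanner output, and 0 of the 9 against 14.0% by the table. The 2 groups did not overlap for 2 of the 9 genes, C1qa and C1qb, against 5.52% of all genes (2.57% with rhTM below saline), and by the table for 0 of the 9 against 21.7% (12.0% with rhTM below). The methods' threshold, a change of at least 2-fold up or to under 0.5 with a P under 0.01, took 0 of the 9 and 0.0367% of all genes. The 9 genes were read on the same 6 arrays and are therefore not 9 independent observations of a direction. For each of the 9 the 95% confidence interval of the difference lay within a 2-fold change either way by both assignments.

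**Figure D1:**
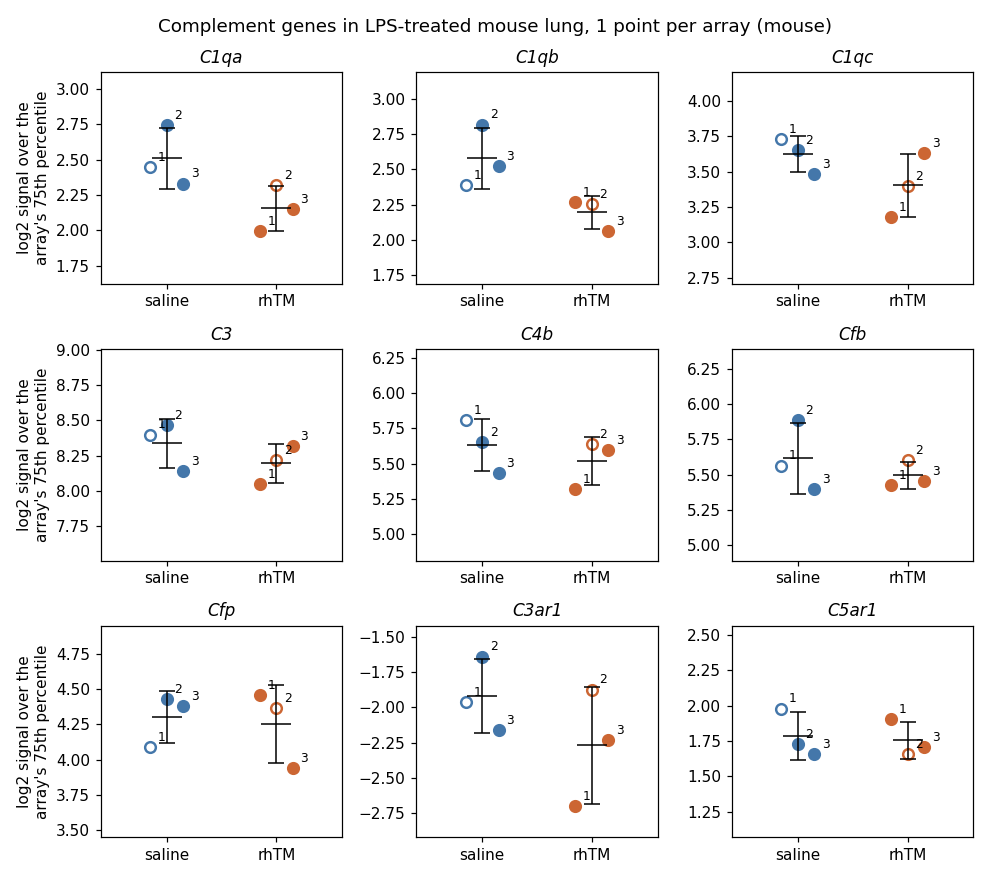
Signal of the 9 complement genes on each of the 6 arrays (vertical axis, log2 of the signal relative to the 75th percentile of its array), for saline and rhTM, with a point for each mouse and bars for the group mean ± SD. Open symbols mark the 2 arrays whose assignment differs between the scanner output and the authors' table, and for C1qa and C1qb all 3 rhTM points lie below all 3 saline points.

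The 3 genes of C1q, whose products assemble into the recognition molecule of the classical pathway, lie next to each other on chromosome 4 in the order C1qb, C1qc, C1qa. C1qa measured 5.46, 6.71 and 5.03 in saline replicates 1 to 3 and 3.99, 4.99 and 4.44 in rhTM replicates 1 to 3. All 3 rhTM arrays were below all 3 saline arrays, although the closest pair, saline replicate 3 and rhTM replicate 2, was nearly equal. The means were 5.74 ± 0.873 and 4.47 ± 0.498 (SD, n = 3), a difference of -0.35 with an interval from -0.73 to 0.02, and the exact two-sided permutation test gave p = 0.1, the smallest that 3 arrays against 3 allow. By the authors' table the difference was -0.27, the groups overlapped and the exact p was 0.3.

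C1qb, the second chain, measured 5.25, 7.05 and 5.75 with saline and 4.82, 4.78 and 4.18 with rhTM. Again no rhTM array reached a saline array, and saline replicate 2 stood above the other saline mice. The means were 6.02 ± 0.930 and 4.59 ± 0.357 (SD, n = 3). The difference of -0.38 had an interval from -0.74 to -0.02, which excluded 0 before adjustment (exact permutation p = 0.1), and the limma adjusted p was 0.9999. Within slide 1 the difference was -0.41 and within slide 2, which held 1 mouse of each group, -0.33. For C1qa these were -0.38 and -0.30. As no rhTM array reached a saline array for either gene, both slides had to give the same direction. Without saline replicate 2 the difference was -0.23 for C1qa and -0.26 for C1qb. By the table the C1qb difference was -0.29, with an interval from -0.70 to 0.12 and an exact permutation p of 0.3.

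C1qc, the third chain, measured 13.3, 12.6 and 11.2 with saline and 9.07, 10.5 and 12.4 with rhTM. The groups overlapped here, because rhTM replicate 3 lay above saline replicate 3. The difference was -0.22, with an interval from -0.59 to 0.15 and an exact permutation p of 0.2. By the table it was 0.0039, with an interval from -0.40 to 0.41, and so had no direction. No test was made of one chain against another.

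The stretch before the start site of 2 of these neighbours is shown because they lie side by side and their means were both lower by the scanner output. Sequences are the 250 bases before the start site from RefSeq (GRCm38.p6), 5′ to 3′ on the minus strand on which both genes lie, at chr4:136886201-136886450 for C1qb and chr4:136892915-136893164 for C1qc. Capitals mark matches, on either strand, to GAGGAA (the core bound by PU.1, a factor of myeloid cells) and GGGANNNTCC (an NF-κB motif).
C1qb: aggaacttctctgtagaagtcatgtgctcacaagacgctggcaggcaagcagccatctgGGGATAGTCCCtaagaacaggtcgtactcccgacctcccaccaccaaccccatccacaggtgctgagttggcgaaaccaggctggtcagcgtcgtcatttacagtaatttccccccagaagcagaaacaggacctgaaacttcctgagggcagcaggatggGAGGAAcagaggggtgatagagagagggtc
C1qc: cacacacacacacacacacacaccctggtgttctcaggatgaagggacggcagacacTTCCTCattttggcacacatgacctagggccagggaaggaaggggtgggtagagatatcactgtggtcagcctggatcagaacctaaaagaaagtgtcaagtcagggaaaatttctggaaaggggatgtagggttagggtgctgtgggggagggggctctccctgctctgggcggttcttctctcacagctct
The C1qb sequence held a GAGGAA match that begins 30 bases before the start site, and a pair of overlapping matches to the NF-κB motif, 1 on each strand, from 191 and 190 bases before it. The C1qc sequence held GAGGAA on the opposite strand, 193 bases before the start site. Among 32851 RefSeq promoters of 300 bases, which reach from 250 bases before to 50 after the start site, 28.3% held GAGGAA and 4.59% the NF-κB motif. Of the 6 complement genes found in that table, 3 held GAGGAA (C1qb, C1qc and Cfp) and 1 the NF-κB motif. Such matches describe the letters only. C1qa, C4b and Cfb were not matched in the promoter table.

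C3, the component on which all routes converge, measured 337.5, 353.7 and 282.5 with saline and 264.4, 298.4 and 319.3 with rhTM. Its probe was not saturated on any array. Saline replicates 1 and 2 were the highest, but saline replicate 3 lay among the rhTM arrays. The means were 325 ± 37.3 and 294 ± 27.7 (SD, n = 3), a difference of -0.14 with an interval from -0.48 to 0.20 (exact permutation p = 0.3), and by the table it was -0.02. A second probe of C3 gave -0.19, and -0.09 by the table. The 250 bases before its start site, at chr17:57228137-57228386 on the minus strand of GRCm38.p6, are shown because C3 is a target of C/EBP factors in the acute phase, and the capitals mark the match to TTNNGCAA (a C/EBP motif, here on the opposite strand and 45 bases before the start site).
C3: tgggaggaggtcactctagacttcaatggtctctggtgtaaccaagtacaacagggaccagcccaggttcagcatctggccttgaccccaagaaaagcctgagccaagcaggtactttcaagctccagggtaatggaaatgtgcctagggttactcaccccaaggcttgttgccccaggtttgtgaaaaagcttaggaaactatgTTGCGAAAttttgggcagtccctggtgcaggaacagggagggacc
That motif was held by 10.8% of all promoters and by 1 of the 6 complement genes. Neither GAAANNGAAA (an interferon-stimulated element, 3.44% of promoters) nor TTCNNNGAA (a STAT site, 8.30%) occurred in any of the 6.

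C4b, cleaved by the C1 complex to build the classical C3 convertase, measured 56.0, 50.2 and 43.3 with saline and 40.0, 49.8 and 48.3 with rhTM. The highest array was a saline array and the lowest an rhTM array, with the other 4 mixed. The difference was -0.11, with an interval from -0.48 to 0.25 (exact permutation p = 0.4), and -0.0007 by the table. C4b has a near-identical copy, C4a, so that its signal may hold transcripts of both. The second C4b probe gave -0.27, and -0.16 by the table.

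Factor B, encoded by Cfb next to C2 on chromosome 17, supplies the protease of the alternative C3 convertase. It measured 47.3, 59.3 and 42.1 with saline and 42.9, 48.7 and 43.9 with rhTM. The 3 rhTM values lay inside the saline range, whose spread came from replicate 2 above and replicate 3 below. The difference was -0.12, with an interval from -0.50 to 0.25 (exact permutation p = 0.7), and -0.15 by the table. Its second probe gave -0.25, and -0.16 by the table.

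Properdin, the product of the X-linked Cfp, stabilises that convertase. It measured 17.0, 21.5 and 20.8 with saline and 22.0, 20.6 and 15.3 with rhTM. The highest and the lowest array were both rhTM arrays. The difference was -0.05, with an interval from -0.47 to 0.38 (exact permutation p = 0.8), and it was 0.007 within slide 1 and -0.15 within slide 2. By the table it was -0.23, with an interval from -0.59 to 0.13. On slide 2, the value of saline replicate 1 was 17.0 and that of rhTM replicate 3 was 15.3, the 2 lowest of the 6.

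**Figure D2:**
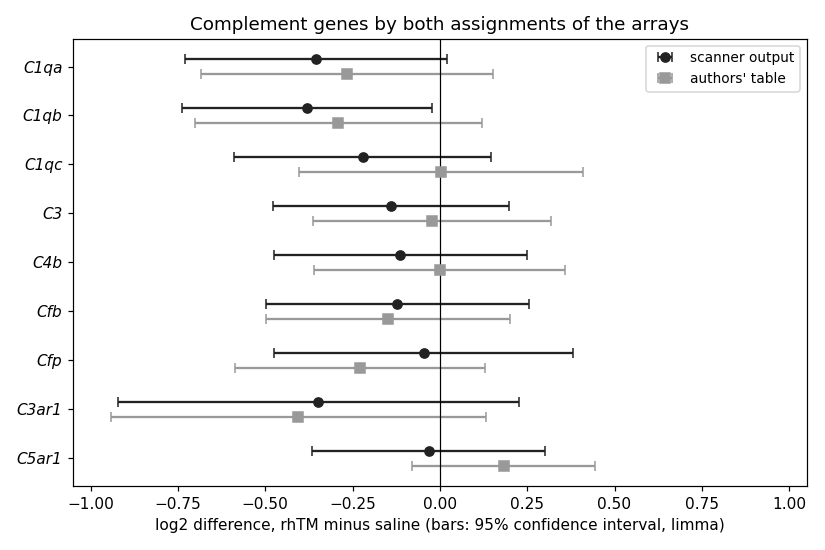
Log2 difference of each complement gene, rhTM minus saline (horizontal axis), with its 95% confidence interval from limma, by the scanner output (circles) and by the authors' table (squares). The interval of C1qb by the scanner output, from -0.74 to -0.02, is the only one of the 18 that does not include 0, and C1qc and C5ar1 have opposite signs by the 2 assignments.

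C3ar1, the receptor of C3a, was the most variable of the 9 genes, with an SD over the 6 arrays of 0.365 on the log2 scale, against a median of 0.203 over all genes. It measured 0.257, 0.321 and 0.224 with saline and 0.154, 0.273 and 0.213 with rhTM. The array of rhTM replicate 1 was the lowest and saline replicate 2 the highest, and the groups overlapped. The difference was -0.35, with an interval from -0.92 to 0.23 (exact permutation p = 0.4), and -0.39 and -0.27 within slides 1 and 2. It was -0.13 without rhTM replicate 1, -0.21 without saline replicate 2 and -0.22 with the normexp background correction. By the table it was -0.41 (exact permutation p = 0.2). With slide as a block in the table, a fit that calls 2.65% of all genes, it was -0.81 with a limma adjusted p of 0.0990, and 0 of the 9 genes passed. All 3 saline arrays of the table are on slide 1 with rhTM replicate 1 alone, so that this fit sets 1 rhTM mouse against 3 saline mice and takes its spread to be that of the others.

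C5ar1, the receptor of C5a that draws neutrophils and monocytes into inflamed tissue, measured 3.94, 3.31 and 3.15 with saline and 3.74, 3.15 and 3.26 with rhTM. It was the least variable of the 9, with an SD over the 6 arrays of 0.137. The means were 3.47 ± 0.419 and 3.39 ± 0.312 (SD, n = 3), a difference of -0.03 with an interval from -0.37 to 0.30 (exact permutation p = 0.7). It had opposite signs on the slides, 0.09 within slide 1 and -0.27 within slide 2. By the table the sign turned as a whole, to 0.18 with an interval from -0.08 to 0.44 (exact permutation p = 0.2).

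Single arrays were at the extremes for several of the 9 genes at once. The array of rhTM replicate 1 had the lowest value for 5 of the 9 genes, C1qa, C1qc, C3, C4b and C3ar1, with a median deviation of -0.22 from the mean of the 6 arrays. The array of saline replicate 2 had the highest value for 5 of the 9, C1qa, C1qb, C3, Cfb and C3ar1, with a median deviation of 0.20. Over all genes, rhTM replicate 1 was lowest for 26.6% and highest for 29.8%, and saline replicate 2 highest for 20.6%. Both arrays are on slide 1 and neither is exchanged in the table. Median deviations on the other arrays ran from -0.10 to 0.13. Within slide 1 the means of 7 of the 9 genes were lower with rhTM, with a median of -0.17, and within slide 2, which holds 1 mouse of each group, 9 of 9 were lower, with a median of -0.21.

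**Figure D3:**
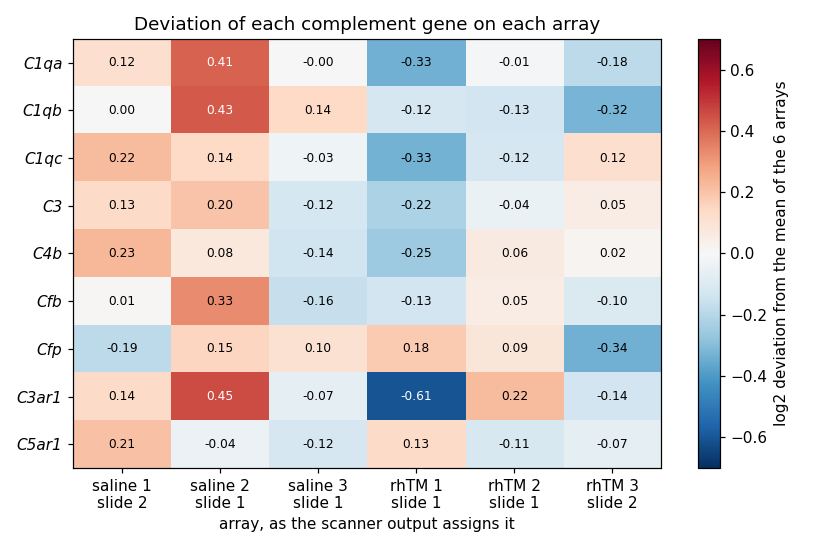
Deviation of each complement gene on each array from its mean over the 6 arrays (colour and printed value, log2), with the slide of each array under its name. The column of rhTM replicate 1 holds the lowest value, -0.61 for C3ar1, and is positive for Cfp and C5ar1, whereas that of saline replicate 2 is positive for all but C5ar1.

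The genes whose values over the 6 arrays were closest to those of a complement gene were sought for the 5 of the 9 whose SD was above the median of all genes, as the smallest mean absolute difference of centred log2 values. For C1qa they were Fiz1 (0.0163) and Hrob (0.0232), and C1qb stood at place 832 and C1qc at place 1204 of all genes. For C1qb they were Cyp2d26 (0.0327) and Phf2 (0.0543). For C1qc they were Snx6 (0.0184) and Tfcp2l1 (0.0299), for Cfp Vps39 (0.0214) and Fahd2a (0.0222), and for C3ar1 Anxa6 (0.0415) and Uhrf1 (0.0437). No complement gene was among the 2 closest of another. With 6 arrays and 16366 genes, close matches are many, and these are descriptions.

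Beyond the 9 genes, 41 other genes of the complement system were on the array and 31 were tested. The means of 12 were higher and of 19 lower with rhTM, with a median of -0.08, and by the table these counts were 13 and 18, with a median of -0.11. None was called by limma in either. At an unadjusted p under 0.05 the scanner output gave 2 of the 31, Fcna and Cfi (1.87% of all genes), and the authors' table gave 5 of the 31 (14.0% of all genes). The 6 tested genes of the classical pathway (C1r and C1s proteases, C2 and C4a) were all lower by the scanner output, with a median of -0.20, and 4 of 6 were lower by the table. C4a, the copy of C4b, had the lowest value of them at -0.47, and stood at 0.0053 by the table.

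Of the lectin pathway, 3 of 8 genes were tested. The ficolin Fcna, a recognition protein of macrophages, measured 0.0790, 0.110 and 0.116 with saline and 0.0763, 0.0707 and 0.0735 with rhTM. No rhTM array reached a saline array, which held for 1 of the 31 genes and 2.57% of all genes, but saline replicate 1 and rhTM replicate 1 were close. Its difference was -0.45, with an interval from -0.86 to -0.04 (exact permutation p = 0.1), and -0.34 by the table, where the groups overlapped. With the normexp background correction it was -0.15. Mbl2, Fcnb, Colec10 and Masp1 were not well above background on any array, nor were C8a, C8b and C9 of the terminal pathway and the regulator C4bp. Of the 4 terminal genes tested C6, a part of the membrane attack complex, had the largest difference, 0.16 in the scanner output, against 0.08 in the table, where Hc, the mouse C5 gene, had the largest, -0.23. Cfd, the protease that activates factor B, had -0.16, and 0.37 by the table.

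By the scanner output 4 of 5 fluid-phase regulators had a higher mean with rhTM (median 0.15), and 3 of 5 by the table. Cfi, the protease that inactivates C3b and C4b, measured 0.0480, 0.0519 and 0.0645 with saline and 0.0951, 0.0599 and 0.0936 with rhTM. Of the rhTM arrays, replicate 2 fell inside the saline range and the others were above it. The difference was 0.58, with an interval from 0.05 to 1.10 (exact permutation p = 0.2), and 0.36 by the table. It was 0.22 with normexp and from 0.20 to 0.80 over the 24 alternatives. Cfi was dim, at -4.38 to -3.40 on the log2 scale. The faintest signals well above background were -5.86, -5.77 and -5.22 on the saline arrays. On the rhTM arrays they were -5.15, -5.42 and -5.09. The part of this floor in the Cfi difference was not tested. Serping1, the inhibitor of C1r and C1s, had a difference of 0.02, and by the table -0.23, where the groups did not overlap.

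The membrane regulators protect the body's own cells from C3 convertases and the membrane attack complex. Of the 6, Cd55 did not overlap between groups by the scanner output, with all rhTM arrays above the saline arrays and a difference of 0.15 (0.10 by the table). Its other probes gave 0.15 and 0.12 (0.26 and 0.23 by the table), and on both the groups overlapped by the scanner output. Cd59a had -0.24 and, by the table, -0.29 without overlap, and its probes differed in sign. Cd46 had 0.01 and -0.33 by the table, and Cr1l -0.06 and -0.11, both without overlap by the table. Of the other receptors, Cr2 of B cells had -0.44 and -0.91 by the table, Cd93 -0.28 and -0.62, and Itgam, the chain of complement receptor 3 on neutrophils and macrophages, 0.06 and 0.51. These 3 did not overlap between groups by the table and did by the scanner output. A second probe of Itgam gave 0.14, and -0.04 by the table. The other Cr2 probes gave -0.07 and -1.04 (-0.31 and -0.94 by the table), the latter well above background on 2 arrays only. In all, 1 of the 31 lay above and 6 below saline without overlap by the table, where 21.7% of all genes did not overlap either way and 12.0% lay below.

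**Figure D4:**
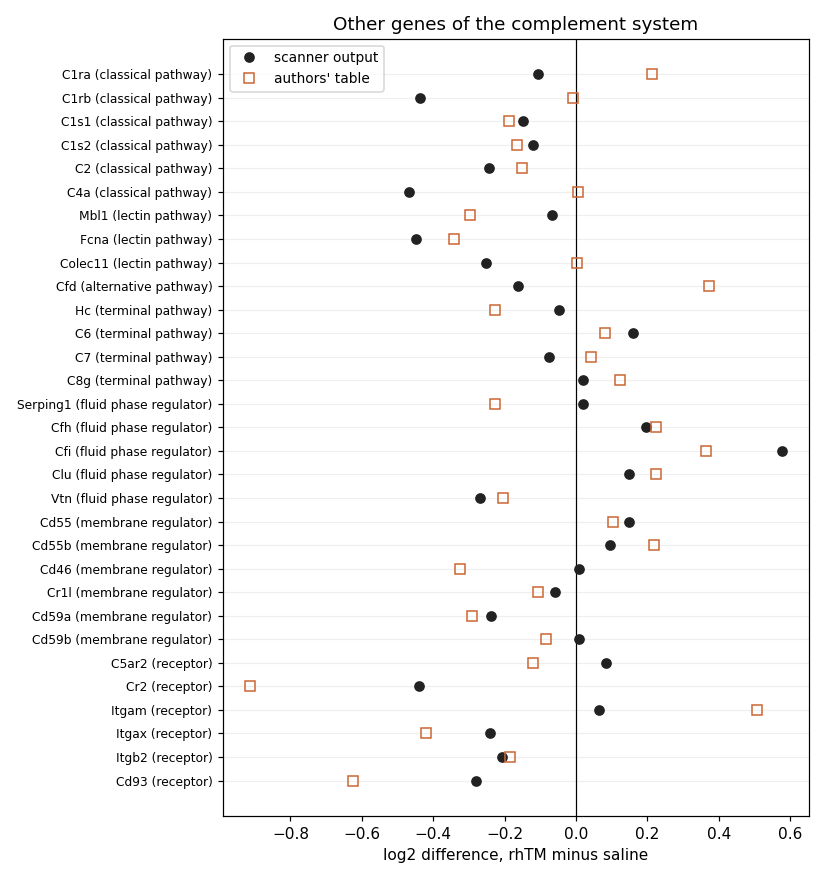
Log2 difference, rhTM minus saline (horizontal axis), of the 31 other complement genes tested, ordered by role (filled, scanner output; open, authors' table). The 6 genes of the classical pathway all lie below 0 by the scanner output and 2 of them lie above 0 by the table, while Cfi lies at 0.58 and 0.36.

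The mRNA of marker genes of lung cell types was measured on the same arrays, which does not give numbers of cells. All 13 markers of interstitial macrophages and monocytes were tested, none was called, and their median difference was -0.10 (-0.08 by the table). Their summed signal was 462.4, 483.8 and 461.2 with saline and 448.7, 450.5 and 444.6 with rhTM. It was lower on every rhTM array by the scanner output, whereas by the table the groups overlapped, and most of the sum on each array was 1 gene, Ly6c2 (263 to 312). Of the 13, the means of 7 were lower and of 6 higher with rhTM, and Ccr2 (-0.19), Ly6c2 (-0.12) and Apoe (-0.13) did not overlap between groups, against 2.57% of all genes with rhTM below saline. By the table these 3 had -0.08, -0.08 and -0.09, all with overlap, and 2 of the 13 markers lay above saline without overlap and 0 below, where 21.7% of all genes did not overlap either way and 12.0% lay below. Csf1r, the receptor on which macrophages depend, had -0.25 (-0.19 by the table), and Adgre1, which encodes a surface antigen of macrophages, had -0.23 (-0.24), both with overlap. The part of these cells in the C1qa and C1qb values was not tested.

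The 10 alveolar macrophage markers summed to between 287.8 and 301.1 with saline and between 274.9 and 332.5 with rhTM, with 6 higher and 4 lower and a median of 0.05 (-0.12 by the table). The 2 brightest were Chil3 with 0.07 and Marco with 0.16, and by the table both signs turned, to -0.0074 and -0.17. The 11 neutrophil markers had a median of 0.05 by both assignments, and S100a9 and S100a8 had 0.03 and 0.10 (0.23 and 0.26 by the table). The 5 mesothelial markers were all lower by both assignments, with medians of -0.61 and -0.66, and summed to 32.9, 50.8 and 36.0 with saline and 25.5, 36.6 and 22.8 with rhTM. Mesothelium is the covering layer of the lung, and its summed signal was highest on saline replicate 2, the array on which C1qa and C1qb were highest. Its part in the complement values was not tested. The 9 markers of alveolar type 2 cells, the epithelium that makes surfactant, had 1 higher and 8 lower with a median of -0.12, whereas in the table there were 5 higher and 4 lower with a median of 0.11. The 9 endothelial markers had 4 higher and 5 lower with a median of -0.19, and in the table there were 2 higher and 7 lower with a median of -0.37, 3 of the 9 below saline without overlap (12.0% of all genes). Of the 5 alveolar type 1 markers tested 4 were lower, with a median of -0.17 (-0.05 in the table). The medians of these 2 lists were below 0 by both assignments, as was that of the complement genes, and their part in the complement values was not tested. Of the 8 hepatocyte markers 1 was tested, and the other 7, albumin among them, did not pass the background filter. The 5 B-cell markers had 4 higher and 1 lower with a median of 0.08. By the table all 5 were lower, with a median of -0.35 and 2 of the 5 below saline without overlap (12.0% of all genes). Their part in the Cr2 values was not tested.

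The 18 acute phase and NF-κB target genes, which like C3 and Cfb respond to endotoxin, had 12 higher and 6 lower with rhTM, with a median of 0.07 (0.14 by the table, also 12 and 6). The 2 brightest of them were Saa3 with 0.09 and Lcn2 with 0.14 (0.36 and 0.30 by the table). The 17 tested interferon-inducible genes had 11 higher and 6 lower, with a median of 0.03 (0.08 by the table). None of either list was called by limma. The medians of these lists were therefore above 0 where that of the 9 complement genes was below it, and that difference between lists was not tested.

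**Figure D5:**
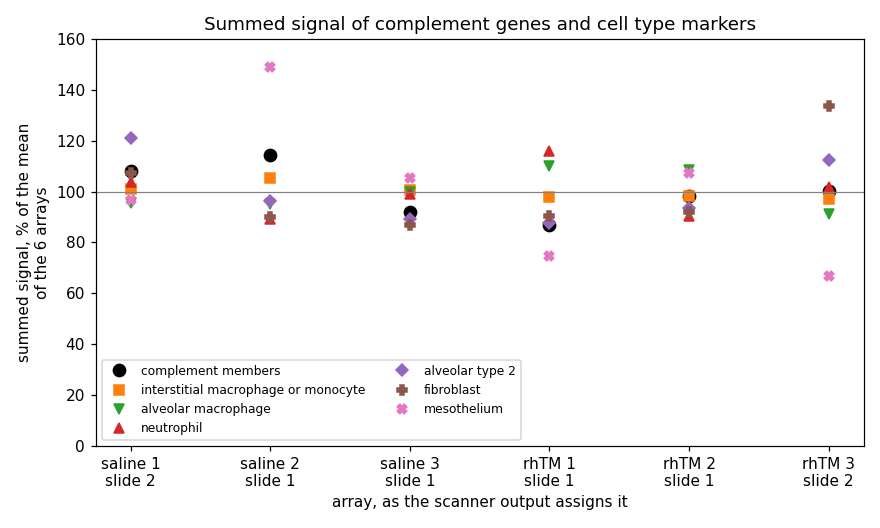
Summed signal of the 9 complement genes and of 6 marker lists on each array, as a percentage of the mean over the 6 arrays (vertical axis), with the slide under each array name. Most of the complement sum on each array is C3 (264 to 354, of sums from 391 to 515). Interstitial macrophage or monocyte markers stay near 100% on all arrays, and mesothelial markers have the widest range.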

How the data were processed

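RNA from the lungs of 6 mice, 3 given saline and 3 given rhTM, was hybridised to Agilent SurePrint G3 Mouse arrays, and samples were grouped by their labels, which give 1 mouse per array. Processed signals were deposited for each array. They are linear intensity values from which Feature Extraction (10.7.3.1 in the file headers, 9.1 in the submitters' processing notes) had subtracted background and spatial trend. The authors also gave these intensity values in a table, as means over spots without scaling. The labels and the methods name different RNA kits.

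Control and outlier-flagged spots were removed, spots of 1 probe averaged, and the 75th percentile of each array subtracted on the log2 scale. Of 56605 probes, 398 had no usable spot on some array. Accessions of 32989 of 56207 probes matched a RefSeq gene table (GRCm38.p6), for 22811 genes. The design used another build, so no probe positions are given, and the coordinates printed are those of the RefSeq promoter sequences. Probes had to be well above background in all 3 mice of either group, and the brightest over the 6 arrays stood for its gene (16366 genes, 16316 by the table). All 13 probes of the 9 genes were kept. The test was that of limma 3.58.1 (lmFit and eBayes, R 4.3.3), with p-values adjusted over all genes by Benjamini-Hochberg, a threshold of 0.05, and a check on simulated data. For single genes an exact two-sided permutation test ran over all 20 splits. The number of arrays limits the precision.

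The 9 genes, the other gene lists and the marker lists were chosen with earlier results of these data known. Named were all 9 genes, the other complement genes whose groups do not overlap by either assignment or that differ most in their role, the 2 closest genes of each variable member, and the 2 brightest genes of the lists described singly. Adgre1, Ccr2, Apoe and Hc were chosen after their values were seen. The markers Ly6g, Rtkn2, Trac and Mx1 were not matched. Same-numbered arrays deviated together for replicate 2 (correlation over genes of 0.44) but not for replicates 1 and 3 (-0.30 and -0.45), so the numbers were not taken as pairs. Alternatives were another background correction (normexp, offset 50, on the median signal), quantile normalization, another percentile, other filters, the mean of a gene's probes, slide or replicate as a block, each array left out, the authors' table, and the methods' t-test.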

Additional observations from a re-analysis of the deposited data

How the results depend on the processing

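With 3 arrays a group, 0 of the 9 complement genes passed the limma threshold under any of the 24 alternatives, and their median was below 0 in all 24 (-0.25 to -0.02). C1qa (-0.47 to -0.13), C1qb (-0.50 to -0.15) and C3ar1 (-0.81 to -0.13) were lower with rhTM in each. Not all of these alternatives could change a sign. By the scanner output, slide or replicate as a block and the methods' t-test change the test only and leave each difference as it was. The other filters on dim probes left the median unchanged too. Leaving out an array of the scanner output could not turn C1qa or C1qb, whose groups did not overlap. Among the complement genes named with values, by the authors' table C1qc (0.0039), C5ar1 (0.18), C4a (0.0053), Cfd (0.37), Serping1 (-0.23) and Cd46 (-0.33) changed sign. With slide as a block in that table, Cfp (0.069), C5ar1 (0.22), Serping1 (-0.19) and Cd46 (-0.20) did, and without both exchanged arrays C5ar1 (0.11), Cfd (0.16), Serping1 (-0.15) and Cd46 (-0.24). Serping1 also did with normexp (-0.012), quantile normalization (-0.048) and the percentile of probes above background (-0.0032), as did Cd46 with the last (-0.016). The cause was not tested.

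Leaving out 1 array at a time, by either assignment, gave ranges that crossed 0 for C1qc (-0.33 to 0.17), C3 (-0.24 to 0.082), C4b (-0.21 to 0.13), Cfb (-0.27 to 0.015), Cfp (-0.38 to 0.11) and C5ar1 (-0.11 to 0.26). They did so too for C4a (-0.75 to 0.27), Cfd (-0.39 to 0.70), C6 (-0.060 to 0.23), Serping1 (-0.28 to 0.11), Cd46 (-0.40 to 0.17), Cr2 (-1.11 to 0.045) and Itgam (-0.20 to 0.74). The omissions in the table were chosen after seeing the data.

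Over all genes limma called 0 by the scanner output (306 at an unadjusted p under 0.05) and 0 by the table (2279), 432 in the table with slide as a block (187 higher, 245 lower) and 1 without both exchanged arrays. That block rests on rhTM replicate 1 alone against 3 saline mice, since the table's other rhTM arrays have slide 2 to themselves, and assumes that 1 mouse to vary like the others, so its calls describe 1 array as much as the treatment. The fold and P thresholds of the methods took 6 genes and the methods' t-test with Benjamini-Hochberg adjustment 0. Leaving out 1 array gave 0 to 593 calls, with 593 in the table without rhTM replicate 1, where slide and treatment cannot be told apart. Among other complement genes 1 was called in the table with slide as a block and so by rhTM replicate 1 alone, Cr2 (limma adjusted p = 0.0322), and 0 to 1 on leaving out an array, with Itgam (limma adjusted p = 0.0188) in the table without rhTM replicate 1, again with slide and treatment inseparable.

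The replicate numbers were not taken to pair the mice. With the replicate number as a block 0 genes were called (376 at an unadjusted p under 0.05), the 9 differences were the same, and the median of the 9 was -0.14.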
